A study of Homo sapiens with 24 samples.

Results

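The endoplasmic reticulum (ER) folds the proteins that a cell secretes or places in its membranes, and 38 genes of this machinery are described here in HCT-116 cells, a human colorectal cancer line. The 38 genes are a list by function, with no measured value in its rule, and each was found on the array by its gene symbol. They comprise 9 ER chaperones and their helpers, 3 genes of glycoprotein folding, 4 protein disulfide isomerases, 6 stress sensors and transcription factors, 9 genes of ER-associated degradation and 7 subunits of the translocon. They are 38 of the 27274 gene names on the array and have 50 probes. The probe with the highest mean level stood for its gene, and 37 of the 38 could be tested, among 15149 genes tested in all. ERN1 was the exception because in no treatment was its signal well above background, by the scanner software's own test, on all 6 arrays. It was so on 14 of the 24 arrays.

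The cells came from 1 stably transfected clone that carries a Tet repressor and a doxycycline-inducible vector for DN-Tcf4, a dominant negative form of Tcf4 that competes with beta-catenin-Tcf complexes for the promoters of Wnt target genes. Every treatment, the untreated one included, was made in this clone, so the vectors are common to all groups and no untransfected cells were compared. The paper describes treatment with or without doxycycline first, then cotreatment with or without butyrate for 17.5 hr. Its methods give no length for the doxycycline treatment before that. Ctl cells had no agent, NaB cells had sodium butyrate at 5 mM, Doxy cells had doxycycline at 4 μg/ml, and DoxyNaB cells had butyrate and doxycycline together. Butyrate is a histone deacetylase inhibitor formed by fermentation of fiber in the colon. Each treatment was measured in 6 experiments, which the study describes as biological replicates, on 1 one-colour array each, 24 arrays in all. A level below is the log2 of a probe's processed signal divided by that array's 75th percentile over spots, so 1 unit is a 2-fold difference. A level compares 1 probe between arrays and not 1 gene with another.

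When unfolded proteins build up in the ER, 3 membrane proteins sense them. ATF6 is cut to release a transcription factor, IRE1 (encoded by ERN1) splices the mRNA of XBP1 into its active form, and PERK (encoded by EIF2AK3) slows translation while favouring that of ATF4. The targets of ATF6 and spliced XBP1 include the chaperones, the degradation genes and XBP1 itself. The array probes report total mRNA and do not distinguish the spliced form of XBP1. Colon epithelium makes much secreted and membrane protein, and its secretory cells depend on this pathway.

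The share of an array's spots well above background ran from 52.7% to 88.1%, with 78.4% or more in experiments 2 to 4 and 62.6% or less in experiments 1, 5 and 6. The arrays of an experiment shared a slide in experiments 2 to 6, whereas in experiment 1 the arrays with and without butyrate were on separate slides in separate scans, so that slide and butyrate cannot be told apart within that experiment. The epithelial markers EPCAM, KRT8, KRT18, KRT19 and CDH1 were well above background on all 24 arrays and VIL1 on 5. Of 9 markers of other cell types, CD79A and COL1A1 were well above background on all 24 arrays and the other 7 on 7 to 19 arrays. The summed linear level of these 9 was 0.55 to 1.24 of the 75th percentile without butyrate and 1.09 to 3.46 with it, against 209 or more for the epithelial markers, and its part in the results was not tested. The TCF7L2 probe of highest level, for the gene of Tcf4, differed by 4.04 ± 0.36 (SE) between DoxyNaB and Doxy (limma adjusted p = 1.07e-08) but by -0.17 ± 0.36 between Doxy and Ctl (limma adjusted p = 0.921). Of the other 2 TCF7L2 probes, 1 rose by 6.06 and 1 fell by 1.70 in DoxyNaB/Doxy, and neither passed in Doxy/Ctl. AXIN2, a Wnt target, fell in both doxycycline comparisons, by 0.58 in Doxy/Ctl and by 2.53 in DoxyNaB/NaB.

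Butyrate moved the genes of the ER in both directions. Comparing NaB with Ctl addresses the effect of butyrate with the construct not induced, and comparing DoxyNaB with Doxy addresses it with doxycycline present. In NaB/Ctl, 18 of 37 members rose and 6 fell at a limma adjusted p under 0.01, a share of 64.9% against 69.6% of all genes tested, of which 40.6% rose and 29% fell. In DoxyNaB/Doxy, 19 rose and 5 fell, again 64.9%, against 68.4% of all genes, of which 38.1% rose and 30.3% fell. The share of members past the test was therefore below the background in both comparisons, and nothing is read from it about the members. The median change of the members was 0.26 in NaB/Ctl and 0.36 in DoxyNaB/Doxy, beside 0.17 and 0.11 over all genes tested. The same 22 members passed in both comparisons, and these 22 had the same direction in both (18 higher, 4 lower). PDIA6 and SSR4 passed only in NaB/Ctl, HYOU1 and SSR1 only in DoxyNaB/Doxy, and 11 members in neither.

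Fewer members changed more than 2-fold. In NaB/Ctl 6 members rose by that much (WFS1, SEL1L, EIF2AK3, CREB3L2, EDEM3 and SYVN1) and XBP1 fell, 18.9% of those tested, against 32.4% of all genes, of which 21% rose and 11.5% fell. In DoxyNaB/Doxy CRELD2 took the place of CREB3L2, whose change was 1.98-fold, and XBP1 again fell, also 18.9%, against 31.1% of all genes, of which 18.7% rose and 12.5% fell. The 6 arrays of each treatment did not overlap for 14 of 37 members in either butyrate comparison, whereas they did not overlap for 45.4% of all genes in NaB/Ctl and 43.4% in DoxyNaB/Doxy.

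The direction of these changes is relative to the 75th percentile of each array, and the choice of that reference matters here. When arrays were scaled to their median instead, the median change over all probes tested in NaB/Ctl moved from 0.17 to -0.56 and that in DoxyNaB/Doxy from 0.10 to -0.44. The counts of members then became 2 that rose and 14 that fell in NaB/Ctl, and 2 and 8 in DoxyNaB/Doxy. Of all probes that passed, 22.5% and 26.8% were then higher, against 58.7% and 55.6% with the reported scaling. Both scalings shift an array by a constant, apart from a floor on low signals in the median scaling. The members' median minus that of all probes is therefore nearly the same in both by construction. It was 0.09 in NaB/Ctl and 0.26 in DoxyNaB/Doxy, and nothing is read from that agreement. The sign of this difference was not the same in every setting. The members' median minus that of all probes was -0.01 in DoxyNaB/Doxy with normexp, and in NaB/Ctl and DoxyNaB/Doxy it was -0.41 and -0.14 with no filter on dim probes and -0.67 and -0.46 in experiments 2 to 4 alone. Over the reported scaling and 4 others (normexp background correction, quantile normalization, the median, and the 75th percentile over probes), 10 members were higher with butyrate throughout and 8 were lower throughout, while 19 changed sign in at least 1. The 10 were HSPA5, DNAJC3, CRELD2, EIF2AK3, CREB3L2, WFS1, EDEM2, EDEM3, SEL1L and SYVN1. The 8 were CANX, GANAB, PDIA6, XBP1, DERL1, DERL2, SSR3 and SSR4. WFS1 among the former and CANX, XBP1 and DERL2 among the latter also passed the test in every scaling.

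**Figure D1:**
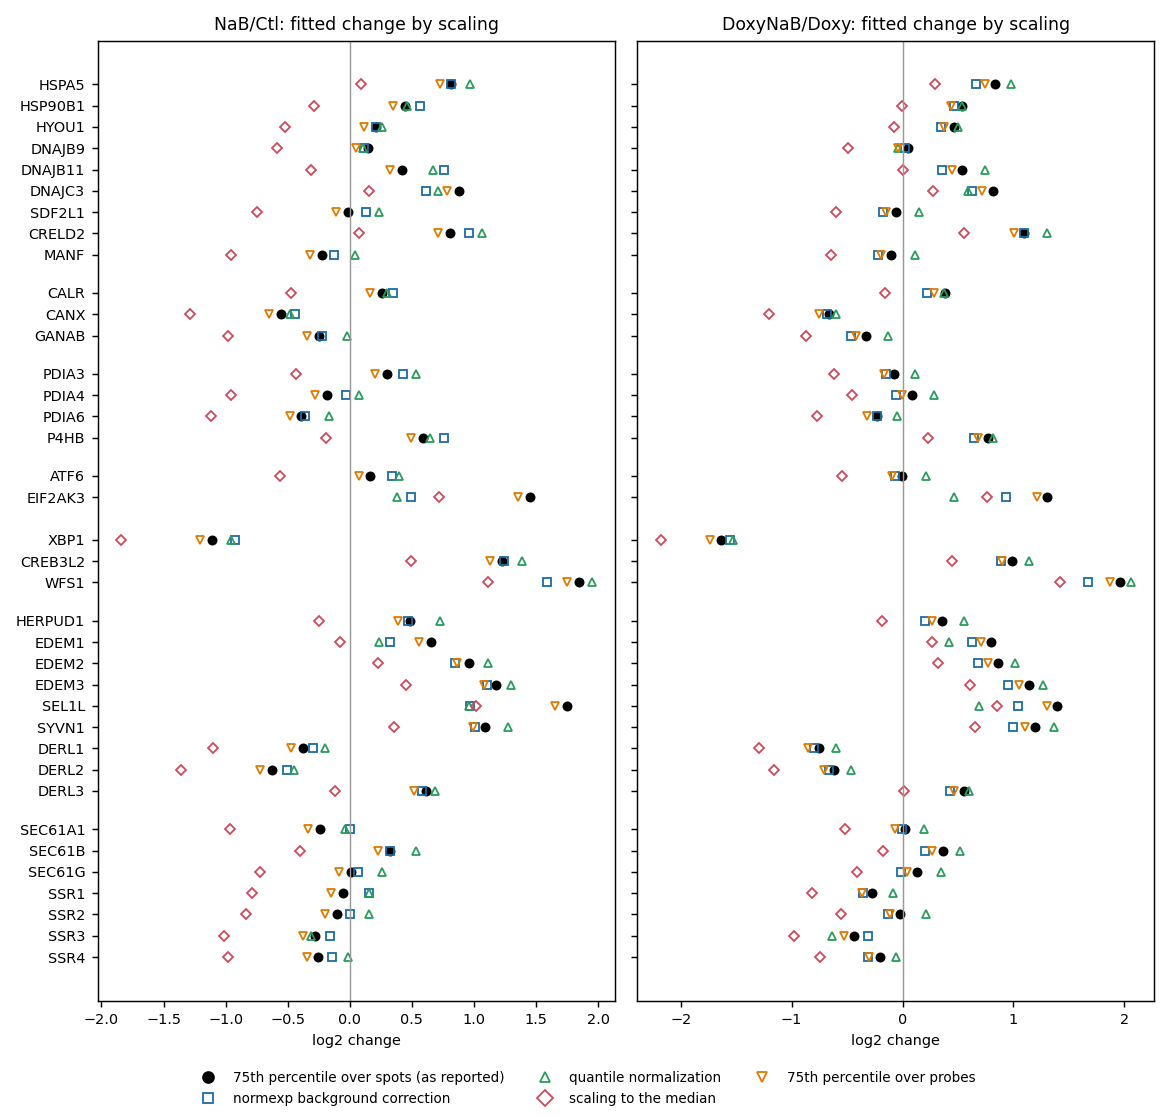
Fitted log2 change of each of the 37 tested members (vertical axis, grouped by role) in NaB/Ctl and DoxyNaB/Doxy (horizontal axes), with the reported scaling as a filled circle and 4 other scalings as open symbols. Scaling to the median (diamonds) moved the members to the left, and 19 members changed sign in at least 1 scaling.

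Several of these promoters carry the ER stress element (ERSE), the sequence through which NF-Y and ATF6 or XBP1 are known to act, and they are shown as the known regulatory element of these genes. Promoters of 35 of the 38 members were in the RefSeq table used (GRCh38.p14, 250 bases before to 50 bases after the start site), 46 promoters in all. ERSE was searched on both strands as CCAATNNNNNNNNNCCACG, and it was found in 27 of all 35116 promoters (0.0769%), among them those of HSPA5, HSP90B1, CRELD2, CALR, CANX, PDIA6 and XBP1. The second form, ERSE-II, was searched as ATTGGNCCACG and was found in 19 promoters (0.0541%), among them those of HYOU1, SDF2L1 and HERPUD1. Both elements are built from a CCAAT box, which alone occurs in 34.6% of all promoters, and the letters CCACG, which alone occur in 38.1%. In the stretches below, all upstream of the start site and read along the gene, capitals mark the element, which reads from CCAAT to CCACG in HSPA5 and XBP1, and in the first HSP90B1 stretch, and as its reverse complement in the second HSP90B1 stretch, in CRELD2 and in CALR. They lie at chr9:125241371-125241429 (HSPA5, minus strand), chr22:28800583-28800641 (XBP1, minus strand), chr12:103930196-103930254 and chr12:103930301-103930359 (HSP90B1, plus strand), chr22:49918534-49918592 (CRELD2, plus strand) and chr19:12938364-12938422 (CALR, plus strand), and the ERSE-II of HERPUD1 at chr16:56932005-56932055 (plus strand).
HSPA5: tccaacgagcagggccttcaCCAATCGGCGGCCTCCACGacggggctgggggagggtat
XBP1: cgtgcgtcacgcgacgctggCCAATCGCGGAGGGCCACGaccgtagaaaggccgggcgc
HSP90B1, first: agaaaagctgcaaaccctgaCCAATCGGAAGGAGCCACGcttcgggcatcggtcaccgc
HSP90B1, second: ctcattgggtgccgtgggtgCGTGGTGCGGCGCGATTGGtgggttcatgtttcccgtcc
CRELD2: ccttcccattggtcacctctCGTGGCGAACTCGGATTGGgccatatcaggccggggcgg
CALR: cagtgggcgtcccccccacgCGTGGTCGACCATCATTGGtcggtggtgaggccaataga
HERPUD1: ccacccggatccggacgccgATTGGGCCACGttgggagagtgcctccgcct

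Of the 7 members with ERSE, 4 rose and 3 fell in NaB/Ctl, where 40.6% of all genes rose and 29% fell. In DoxyNaB/Doxy 4 rose, 2 fell and PDIA6 did not pass, where 38.1% of all genes rose and 30.3% fell. Nothing is read from these counts about the element. The element lies at -66 to -48 from the start site in HSPA5 and at -52 to -34 in XBP1, and in NaB/Ctl HSPA5 rose by 0.82 while XBP1 fell by 1.11. Of the 3 members with ERSE-II, HERPUD1 rose in both comparisons and HYOU1 only in DoxyNaB/Doxy, whereas SDF2L1 passed in neither (-0.02 and -0.06). A match in these windows is a description of the letters and says nothing about which factor was bound.

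Among the chaperones, HSPA5 encodes BiP, the main Hsp70 of the ER, which also holds the stress sensors inactive. The probe of HSPA5 lies at chr9:127036970-127037029 on the NCBI36 build of the files. Its level was 0.53, 0.74 and 1.02 in Ctl (lowest, median and highest of 6 arrays), 1.34, 1.59 and 1.79 in NaB, 0.51, 0.64 and 0.92 in Doxy, and 1.10, 1.55 and 1.73 in DoxyNaB. Each array with butyrate was above each array without it. HSPA5 rose 1.76-fold in NaB/Ctl (log2 change 0.82 ± 0.08 (SE), 6 experiments, limma adjusted p = 1.75e-08) and 1.79-fold in DoxyNaB/Doxy (0.84 ± 0.08, limma adjusted p = 1.32e-08), but with scaling to the median the changes were 0.09 and 0.30 and did not pass.

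DNAJC3, which encodes p58IPK, a co-chaperone of BiP that also inhibits PERK, behaved much as HSPA5 did. Its level was -1.46, -1.07 and -0.88 in Ctl, -0.46, -0.23 and 0.10 in NaB, -1.57, -1.02 and -0.95 in Doxy, and -0.73, -0.26 and 0.03 in DoxyNaB. The arrays with and without butyrate did not overlap. In NaB/Ctl DNAJC3 rose 1.84-fold (limma adjusted p = 1.79e-07), and in DoxyNaB/Doxy it rose 1.76-fold (limma adjusted p = 5.34e-07). CRELD2, a small secreted ER protein that is induced by ER stress, had levels of 2.22, 2.41 and 3.30 in Ctl, 2.98, 3.37 and 3.83 in NaB, 2.08, 2.29 and 2.60 in Doxy, and 3.06, 3.45 and 3.76 in DoxyNaB. Its Ctl array of highest level lay within the NaB arrays, and Doxy and DoxyNaB did not overlap. CRELD2 rose 1.75-fold in NaB/Ctl (limma adjusted p = 4.13e-07) and 2.14-fold in DoxyNaB/Doxy (limma adjusted p = 6.75e-09).

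The other chaperone genes changed less. HSP90B1, which encodes the ER form of Hsp90 (GRP94), rose by 0.44 and 0.53 on the log2 scale in NaB/Ctl and DoxyNaB/Doxy, with its value at -0.29 and -0.01 under median scaling. DNAJB11, a co-chaperone of BiP, rose by 0.42 and 0.54, and under median scaling its value was -0.31 in NaB/Ctl. HYOU1, an Hsp110-like nucleotide exchange factor of BiP, rose by 0.46 in DoxyNaB/Doxy and had a change of 0.21 in NaB/Ctl that did not pass (limma adjusted p = 0.138). DNAJB9, SDF2L1 and MANF, a DnaJ protein, a partner of DnaJ proteins and a secreted ER stress factor, passed in neither, with changes from -0.22 to 0.14. In all, 5 of the 9 chaperone genes rose in NaB/Ctl and 6 in DoxyNaB/Doxy, against 40.6% and 38.1% of all genes, and 0 fell in either, against 29% and 30.3%. Under median scaling 0 rose in either and 2 fell in NaB/Ctl, where 22.5% of all probes that passed were higher.

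The genes of glycoprotein folding went different ways. CALR (calreticulin) and CANX (calnexin) encode related lectin chaperones, soluble and membrane-bound respectively, that hold newly made glycoproteins, and GANAB encodes the catalytic subunit of glucosidase II, which trims their sugars. CANX had levels of -1.44, 0.87 and 1.15 in Ctl, -2.27, 0.28 and 0.49 in NaB, -1.43, 0.84 and 1.10 in Doxy, and -1.88, 0.10 and 0.68 in DoxyNaB. In each treatment experiment 1 gave the lowest array, and the treatments overlapped, yet CANX was lower with butyrate in each of the 6 experiments. It fell by 0.56 ± 0.13 in NaB/Ctl (limma adjusted p = 0.00104) and by 0.66 ± 0.13 in DoxyNaB/Doxy (limma adjusted p = 0.000225), and its other tested probe fell by 0.38 and 0.39. Both calls rest on comparing arrays within an experiment, since without the replicate block the adjusted p was 0.379 and 0.299. CALR rose by 0.26 and 0.38, with values of -0.47 and -0.16 under median scaling. GANAB did not pass, with changes of -0.25 and -0.33.

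Protein disulfide isomerases form and rearrange the disulfide bonds of secreted proteins, and P4HB encodes the founding member. P4HB had levels of 5.15, 5.31 and 5.54 in Ctl, 5.57, 6.00 and 6.14 in NaB, 5.18, 5.32 and 5.33 in Doxy, and 5.65, 6.12 and 6.25 in DoxyNaB, where 2 NaB arrays were left out because the software had flagged their spots as outliers. Levels with butyrate lay above those without it on all the arrays kept. P4HB rose by 0.59 ± 0.11 in NaB/Ctl, in 4 of the 4 experiments measured, and by 0.77 ± 0.10 in DoxyNaB/Doxy, and its second probe rose by 0.59 and 0.87, while under median scaling the first read -0.19 in NaB/Ctl. PDIA6 fell by 0.39 in NaB/Ctl and did not pass in DoxyNaB/Doxy (-0.23, limma adjusted p = 0.0306). PDIA4, also with 2 NaB arrays left out, and PDIA3 passed in neither comparison. The probe of PDIA3 read 0.86 on the Ctl array of experiment 4 and 2.28 to 3.22 on the other 5 Ctl arrays, and its second probe did not pass either (0.07 and 0.13).

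**Figure D2:**
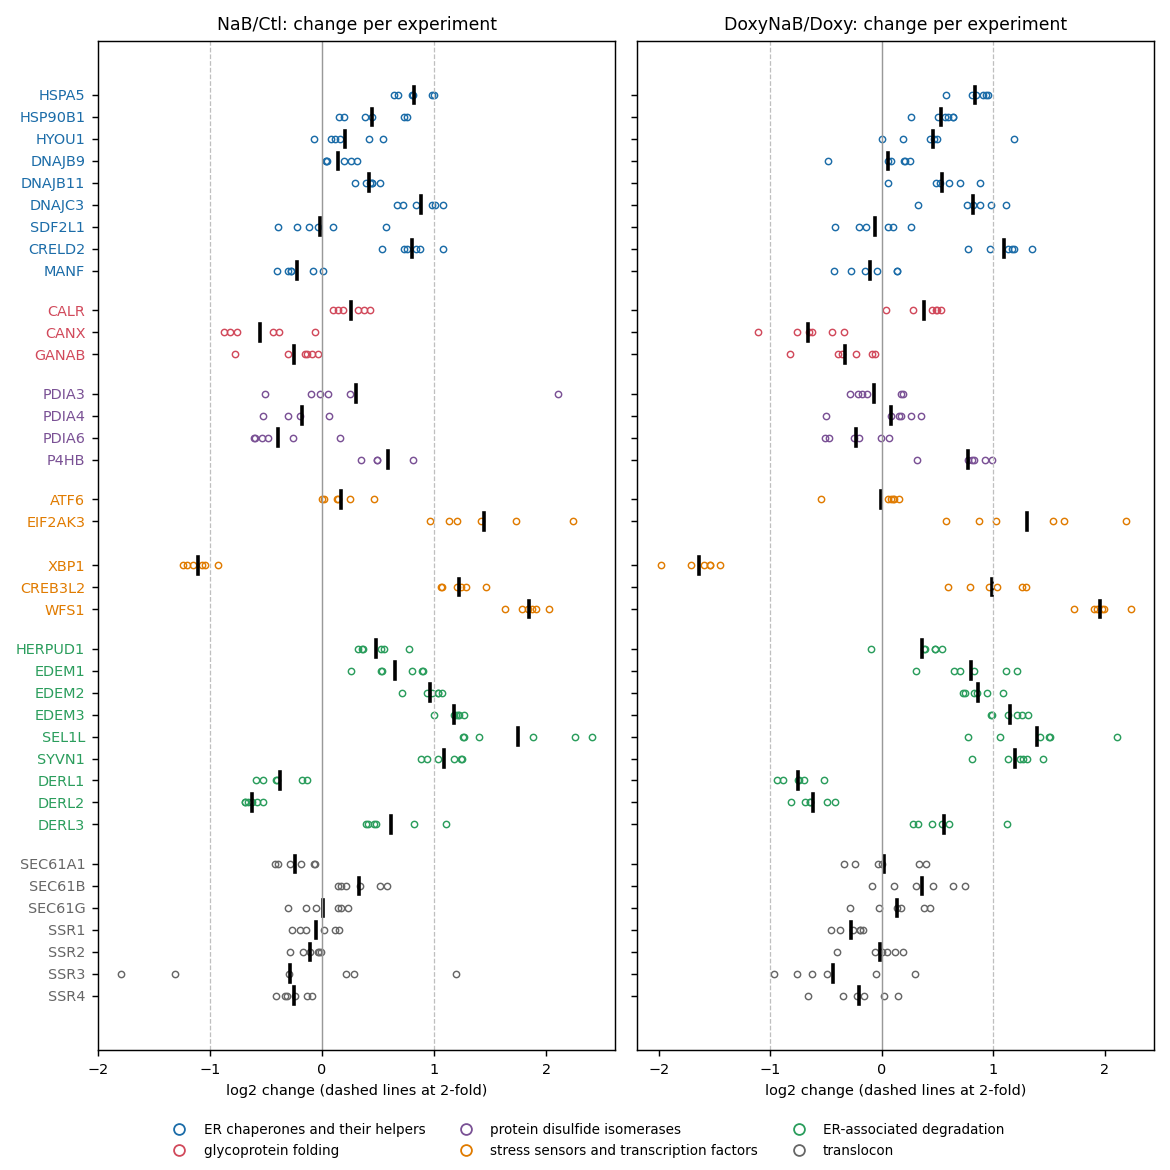
Log2 change of each tested member (vertical axis, grouped and coloured by role) in NaB/Ctl and DoxyNaB/Doxy, with 1 open circle per experiment, a black bar at the fitted change and dashed lines at 2-fold. All 6 circles of WFS1 lie to the right of 2-fold and all but 1 of XBP1 to the left of it in NaB/Ctl, while PDIA3 and SSR3 are spread over more than 2 units there.

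Among the stress sensors and factors, WFS1, EIF2AK3 and CREB3L2 rose with butyrate and XBP1 fell. WFS1 encodes wolframin, an ER membrane protein that restrains ER stress signalling, and its probe lies at chr4:6355336-6355395 (NCBI36). Its level was -0.23, -0.08 and 0.59 in Ctl, 1.64, 1.78 and 2.50 in NaB, -0.36, -0.16 and 0.25 in Doxy, and 1.54, 1.76 and 2.24 in DoxyNaB. The arrays with butyrate were above all arrays without it. WFS1 rose 3.59-fold in NaB/Ctl (1.84 ± 0.08, limma adjusted p = 2.58e-13) and 3.89-fold in DoxyNaB/Doxy (1.96 ± 0.08, limma adjusted p = 1.14e-13), the largest rise in each when every member is read by its probe of highest level, and passed under every scaling tried with values of 1.11 to 2.06.

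XBP1, the transcription factor activated by IRE1, was the 1 member that fell more than 2-fold, and its probe lies at chr22:27520733-27520792 (NCBI36). Its level was 1.39, 1.62 and 1.84 in Ctl, 0.32, 0.40 and 0.82 in NaB, 1.68, 1.86 and 2.10 in Doxy, and -0.10, 0.21 and 0.50 in DoxyNaB. The arrays with butyrate were below all arrays without it. XBP1 fell 2.16-fold in NaB/Ctl (-1.11 ± 0.07, limma adjusted p = 9.59e-11) and 3.12-fold in DoxyNaB/Doxy (-1.64 ± 0.07, limma adjusted p = 4.61e-13), in 6 of 6 experiments each.

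Of the 3 sensors, EIF2AK3 passed the test, ATF6 did not, and ERN1 was too dim to enter it. EIF2AK3 had levels of -4.60, -3.63 and -2.73 in Ctl, -2.73, -2.17 and -1.77 in NaB, -4.26, -3.31 and -2.65 in Doxy, and -2.60, -1.98 and -1.55 in DoxyNaB. The groups of each comparison did not overlap, although they nearly met, and on 1 Ctl array this dim probe was not well above background. EIF2AK3 rose 2.73-fold (1.45 ± 0.19) in NaB/Ctl, and in DoxyNaB/Doxy the rise was 2.47-fold (1.30 ± 0.19), but the changes were 0.49 and 0.93 with normexp background correction and 0.38 and 0.47 with quantile normalization, and of these 4 only the 0.93 passed. Under median scaling its NaB/Ctl value of 0.72 also missed the threshold (limma adjusted p = 0.0121).

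ATF6 had levels of 1.79, 1.93 and 2.09 in Ctl, 1.82, 2.01 and 2.51 in NaB, 1.82, 2.08 and 2.30 in Doxy, and 1.62, 2.07 and 2.46 in DoxyNaB. The 4 treatments overlapped. Its change was 0.17 ± 0.09 in NaB/Ctl (limma adjusted p = 0.102) and -0.01 ± 0.09 in DoxyNaB/Doxy (limma adjusted p = 0.944), with 95% intervals of -0.02 to 0.35 and -0.20 to 0.18. With quantile normalization ATF6 passed in both, at 0.40 (limma adjusted p = 1.39e-05) and 0.21 (limma adjusted p = 0.00435). Without the 2 arrays of highest negative controls it passed in NaB/Ctl, at 0.20 (limma adjusted p = 0.00449). ERN1 was well above background on 3 of 6 arrays in Ctl and in Doxy and on 4 of 6 in NaB and in DoxyNaB. Its level was -7.35, -5.33 and -3.54 in Ctl, -6.13, -2.91 and -0.65 in NaB, -7.24, -4.52 and -2.38 in Doxy, and -4.75, -3.82 and -0.31 in DoxyNaB. Arrays of experiments 2 to 4 gave the highest values in each treatment. In those experiments alone ERN1 entered the test and did not pass, at 2.73 in NaB/Ctl (limma adjusted p = 0.015) and 1.67 in DoxyNaB/Doxy (limma adjusted p = 0.0919). The median change of all probes tested there was 0.83 and 0.68. Negative controls there had a mean net signal of 63.1 to 76.9 in Ctl and 112.1 to 161.0 in NaB. In Doxy it was 68.7 to 79.6 and in DoxyNaB 69.1 to 248.9. The part of this background in the changes of dim probes was not tested. CREB3L2, a factor of the ATF6 type that is cut from the ER membrane, had levels of 0.41 to 0.81 in Ctl, 1.66 to 2.04 in NaB, 0.45 to 1.00 in Doxy and 1.38 to 2.22 in DoxyNaB, with medians of 0.63, 1.85, 0.88 and 1.76. These ranges did not overlap between arrays with and without butyrate. The rise of CREB3L2 was 2.33-fold in NaB/Ctl, and in DoxyNaB/Doxy it was 1.98-fold. Its second probe rose by 1.55 and 0.97 on the log2 scale, while under median scaling its values of 0.49 and 0.44 did not pass.

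**Figure D3:**
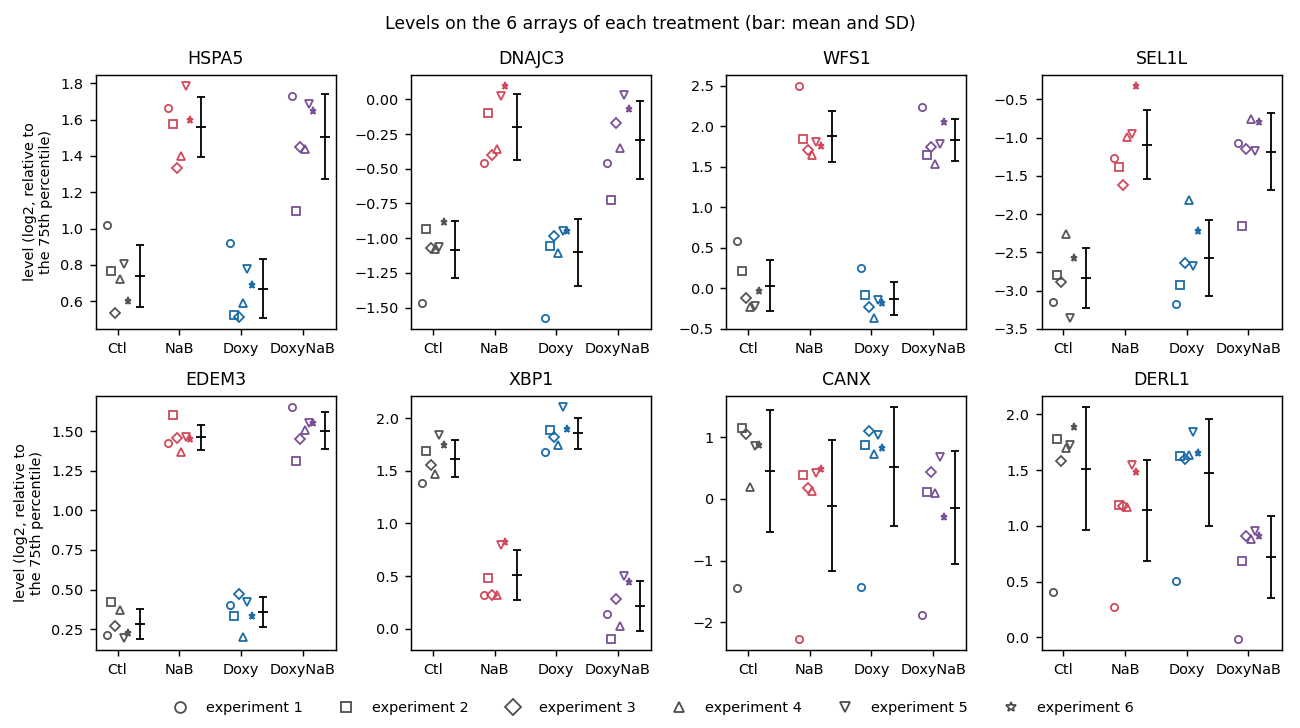
Level of 8 members on the 6 arrays of each treatment (vertical axes, log2 relative to the 75th percentile of the array; symbols mark the experiment, bars the mean and SD of the arrays). The butyrate arrays of HSPA5, DNAJC3, WFS1 and EDEM3 lie above those without butyrate and those of XBP1 below, whereas those of CANX and DERL1 overlap, with experiment 1 (circles) lowest in each treatment.

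ER-associated degradation returns misfolded proteins to the cytosol for the proteasome, and all 9 of its members passed in both comparisons, 7 higher and 2 lower, against 69.6% and 68.4% of all genes. Their median change was 0.65 in NaB/Ctl and 0.80 in DoxyNaB/Doxy. Under median scaling 1 of the 9 rose and 2 fell in NaB/Ctl and 0 rose and 2 fell in DoxyNaB/Doxy. Of all probes that passed under that scaling, 22.5% and 26.8% were higher. SEL1L encodes the adaptor of the membrane ubiquitin ligase that SYVN1 (HRD1) encodes. SEL1L had levels of -3.35, -2.83 and -2.25 in Ctl, -1.62, -1.13 and -0.32 in NaB, -3.18, -2.66 and -1.81 in Doxy, and -2.15, -1.11 and -0.75 in DoxyNaB. NaB arrays lay above all Ctl arrays, while 1 DoxyNaB array, that of experiment 2, fell within the Doxy range. SEL1L rose 3.35-fold (1.74 ± 0.18) in NaB/Ctl, and in DoxyNaB/Doxy the rise was 2.63-fold (1.39 ± 0.18), and a second probe of the gene rose by 2.26 and 2.25, whereas with quantile normalization the reported probe changed by 0.96 and 0.69 and did not pass. SYVN1 had levels of 0.75, 0.93 and 1.06 in Ctl, 1.78, 1.99 and 2.22 in NaB, 0.73, 0.85 and 0.88 in Doxy, and 1.54, 2.09 and 2.32 in DoxyNaB. The groups were well apart. SYVN1 rose 2.12-fold and 2.29-fold.

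EDEM1, EDEM2 and EDEM3 encode mannosidase-like proteins that mark glycoproteins for degradation, and all 3 rose. EDEM3 had levels of 0.19, 0.25 and 0.42 in Ctl, 1.37, 1.46 and 1.60 in NaB, 0.20, 0.37 and 0.47 in Doxy, and 1.31, 1.53 and 1.65 in DoxyNaB. Its SD over the 6 arrays of a treatment was 0.0764 to 0.115, and the arrays with and without butyrate did not overlap. EDEM3 rose 2.26-fold (1.18 ± 0.07) in NaB/Ctl, and in DoxyNaB/Doxy the rise was 2.21-fold (1.14 ± 0.07), and its second tested probe rose by 1.36 and 1.04. EDEM2 rose by 0.96 and 0.86 on the log2 scale and EDEM1 by 0.65 and 0.80, the latter with a value of -0.08 in NaB/Ctl under median scaling. HERPUD1, a stress-induced membrane partner of the ligase, rose by 0.48 and 0.36, and under median scaling its values were -0.25 and -0.18.

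The derlins, membrane proteins of the retrotranslocation channel, differed among themselves. DERL1 had levels of 0.41, 1.71 and 1.89 in Ctl, 0.28, 1.18 and 1.54 in NaB, 0.51, 1.63 and 1.85 in Doxy, and -0.01, 0.89 and 0.96 in DoxyNaB. Experiment 1 gave the lowest array of each treatment, and DERL1 was lower with butyrate in each of 6 experiments. It fell by 0.38 ± 0.07 in NaB/Ctl and by 0.76 ± 0.07 in DoxyNaB/Doxy. DERL2 fell by 0.63 and 0.62 with no overlap of the arrays in either comparison. DERL3 rose by 0.61 and 0.55, with values of -0.12 and 0.01 under median scaling.

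The translocon is the channel through which new proteins enter the ER. Of its 7 members 1 rose and 1 fell in each comparison. Of all genes 40.6% rose and 29% fell in NaB/Ctl, and 38.1% and 30.3% in DoxyNaB/Doxy. Under median scaling 0 rose and 5 fell in NaB/Ctl and 0 rose and 2 fell in DoxyNaB/Doxy. That scaling lowered all probes alike, and of all that passed 22.5% and 26.8% were higher. SEC61A1, SEC61B and SEC61G encode the channel and SSR1 to SSR4 the translocon-associated complex beside it. Only SEC61B rose in both comparisons, with levels of 4.15, 4.22 and 4.44 in Ctl, 4.30, 4.53 and 5.01 in NaB, 3.95, 4.14 and 4.64 in Doxy, and 4.11, 4.67 and 4.75 in DoxyNaB. The treatments overlapped. Its change was 0.33 ± 0.09 (limma adjusted p = 0.00387) and 0.36 ± 0.09 (limma adjusted p = 0.00177), and the value turned to -0.41 and -0.18 with scaling to the median. The NaB/Ctl call was also lost without experiment 1, 4, 5 or 6 (adjusted p of 0.023, 0.0111, 0.0115 and 0.0253), and the DoxyNaB/Doxy call without experiment 3, 5 or 6 (0.0127, 0.0162 and 0.0102). SSR4 fell by 0.25 in NaB/Ctl and SSR1 by 0.28 in DoxyNaB/Doxy, while another SSR1 probe had values of 0.24 and 0.13 that did not pass. SSR3 varied widely between arrays of a treatment, with levels of -1.85, -0.45 and 1.31 in Ctl, -1.57, -0.35 and 0.62 in NaB, -1.75, -0.07 and 1.14 in Doxy, and -1.45, -0.59 and 0.65 in DoxyNaB. It did not pass, at -0.28 ± 0.28 and -0.44 ± 0.28, but under median scaling it passed in NaB/Ctl at -1.02 (limma adjusted p = 0.00755).

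**Figure D4:**
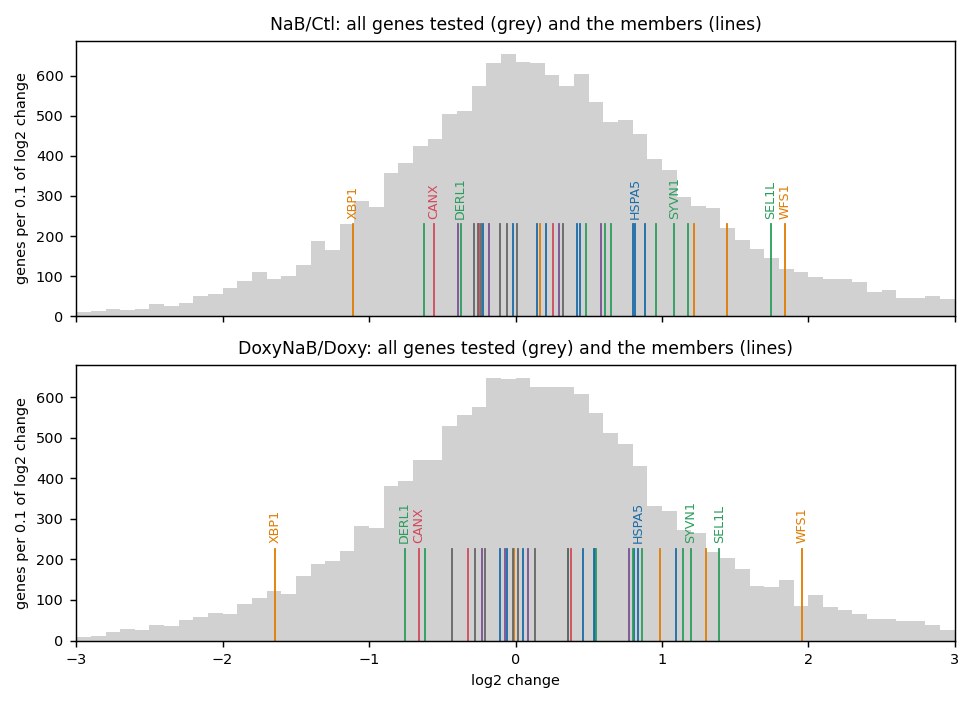
Number of genes per 0.1 of log2 change among all 15149 genes tested (grey bars; genes beyond 3 units are not drawn) with the 37 members as coloured lines at their own change, in NaB/Ctl and DoxyNaB/Doxy. The members run from XBP1 at -1.11 and -1.64 to WFS1 at 1.84 and 1.96, on both sides of 0.

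No member passed the test with doxycycline alone. Comparing Doxy with Ctl addresses doxycycline in cells without butyrate, in which none of the 3 TCF7L2 probes passed the test. With limma, 0 of 37 members passed at an adjusted p under 0.01 or 0.05, against 0.554% of all genes at the former, with 7 members at an unadjusted p under 0.05 (2 higher, 5 lower). The methods' t-test gave 7 of 37 members at its own unadjusted threshold (4 higher, 3 lower). That is a larger share than the 7.08% of all probes tested, and the count was 0 after Benjamini-Hochberg adjustment. The fitted changes of the members ran from -0.24 (CRELD2) to 0.32 (PDIA3). The XBP1 level was higher in Doxy than in Ctl in 6 of 6 experiments, by 0.24 ± 0.07, which did not pass (limma adjusted p = 0.116). Other members also kept 1 direction in 6 of 6 experiments. Among them DNAJB9 and HERPUD1 were higher in Doxy, and DNAJB11, MANF and CALR were lower.

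With butyrate present, DERL1 was the 1 member that differed between DoxyNaB and NaB, against 2.72% of all genes tested (0.693% higher and 2.03% lower). DERL1 fell by 0.42 ± 0.07 (limma adjusted p = 0.00187), in 6 of 6 experiments and by 0.27 to 0.58 in each. The call was lost in several other settings, with an adjusted p of 0.0107 without experiment 4, 0.025 without experiment 5 and 0.0182 without experiment 6. XBP1 was lower in DoxyNaB than in NaB in 6 of 6 experiments, by a mean of 0.29 (log2 change -0.29 ± 0.07), which did not pass at 0.01 (limma adjusted p = 0.02).

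XBP1 was also the 1 member whose butyrate response differed with doxycycline, against 1.35% of all genes tested (1.11% with a positive difference). The difference, the change in NaB/Ctl minus that in DoxyNaB/Doxy, was 0.53 ± 0.10 on the log2 scale (limma adjusted p = 0.00489), and it was positive in 6 of 6 experiments, from 0.30 to 0.78. Thus the fall of XBP1 was larger with doxycycline by this amount. The call did not survive leaving out experiment 1, 3, 4, 5 or 6, where the difference stayed at 0.53 to 0.58 and the adjusted p was 0.0126 to 0.0539. The same difference for DERL1 was 0.38 ± 0.10 and did not pass (limma adjusted p = 0.0734).

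Genes of the PERK-ATF4-CHOP branch were taken as a list of their own, and its difference from the members was not tested. This list was chosen with earlier results of these data known, so its counts are a description and not a test. Of its 11 genes, 6 rose in Doxy/Ctl, where 0.462% of all genes rose, namely CHAC1 by 1.49, DDIT4 by 1.32, DDIT3 (CHOP) by 1.17, TRIB3 by 0.93, SESN2 by 0.68 and ATF4 by 0.45 on the log2 scale. In NaB/Ctl, 5 of the 11 rose and 2 fell, against 40.6% and 29% of all genes, and in DoxyNaB/Doxy 3 rose and 4 fell, against 38.1% and 30.3%. ATF4 fell by 0.89 and 1.28 and TRIB3 by 1.59 and 2.46 in the butyrate comparisons, whereas DDIT3 rose by 1.85 and 2.26 and ATF3 by 2.43 and 2.12. For TRIB3, CHAC1 and SESN2 the butyrate change was lower with doxycycline than without it, by 0.88, 1.20 and 0.67 (limma adjusted p = 5.88e-05, 0.00607 and 0.00457). These calls hold for the reported setting. With the methods' t-test after Benjamini-Hochberg adjustment, 0% of all probes passed for this difference. The share was also 0% in experiments 2 to 4 and in 5 and 6 alone. In Doxy/Ctl 0.0264% of all probes passed under median scaling and 0% in experiments 2 to 4 alone.

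**Figure D5:**
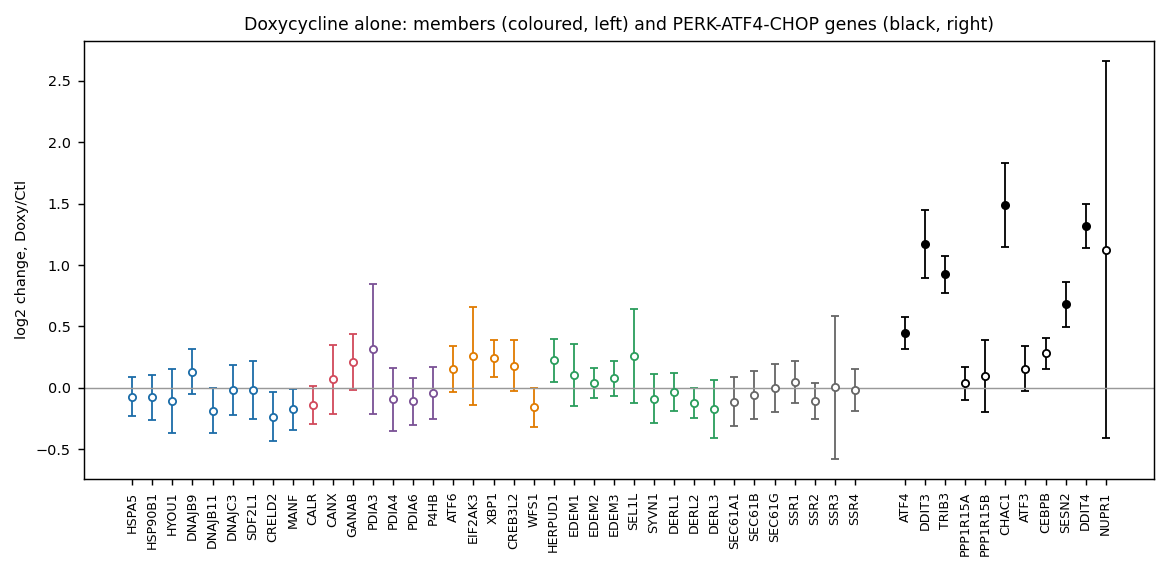
Log2 change in Doxy/Ctl (vertical axis) with its 95% interval for the 37 tested members (coloured by role, left) and for 11 genes of the PERK-ATF4-CHOP branch (black, right), filled where the limma adjusted p was under 0.01. No member is filled, while ATF4, DDIT3, TRIB3, CHAC1, SESN2 and DDIT4 are. Both lists were chosen with earlier results of these data known.

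Other genes of the ER moved in both directions with butyrate, as did all genes tested (40.6% rose and 29% fell in NaB/Ctl, 38.1% and 30.3% in DoxyNaB/Doxy). Nothing is read about these lists from their counts. Of 20 further folding enzymes, 8 rose and 7 fell in each butyrate comparison, from RCN1, a calcium-binding protein, at -2.73 to ERP44, a thiol protein that retains clients, at 2.36 in NaB/Ctl. Of 17 tested subunits of the oligosaccharyltransferase, signal peptidase and translocon partners, 5 rose and 8 fell in NaB/Ctl and 4 rose and 6 fell in DoxyNaB/Doxy. Of 17 further degradation genes, 7 rose and 6 fell in NaB/Ctl and 9 rose and 4 fell in DoxyNaB/Doxy, with OS9, a lectin of the SEL1L complex, at 1.39 and UBE2J1, its ubiquitin-conjugating enzyme, at -2.22 in NaB/Ctl. Of 11 further stress factors and proteases, 4 rose and 4 fell in each, and the 3 subunits of NF-Y were split, with NFYA at 0.78 and NFYB and NFYC at -0.77 and -0.88 in NaB/Ctl.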

How the data were processed

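RNA of 24 cultures of 1 HCT-116 clone was labelled and hybridised to 1-colour Agilent whole genome arrays. Per the file headers, the authors read each array with Agilent Feature Extraction 9.5.3.1, and the deposited values are intensities, of which the processed signal was used here, from which the software had already taken the background and the spatial trend. The arrays were not scaled to each other in the deposited files. Probe coordinates are those of the files (NCBI36).

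Control spots and spots with outlier flags were left out, the log2 of each signal was set relative to the 75th percentile of the array, and the spots of a probe were averaged. The test took the 18974 probes that 1 treatment or more measured well above background in each of its 6 experiments. Treatments were fitted over all 24 arrays with experiment as a block (limma 3.58.1 in R 4.3.3, lmFit and eBayes, 15 residual degrees of freedom), with Benjamini-Hochberg adjustment over all probes tested, an adjusted p under 0.01 and, for calls of size, a change over 2-fold. The script was tested on simulated data. Figures were drawn with matplotlib 3.10.9.

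The pairing by experiment comes from the labels and from the paired test that the methods name. Deviations from the treatment means correlated over 0.1 in 35 of 36 pairs of arrays of the same experiment, with a median r of 0.598 and a lowest of -0.217. For arrays of different experiments this held in 58 of 180 pairs, with a median r of -0.30 and a highest of 0.884. Arrays of an experiment also shared a slide in experiments 2 to 6, which these correlations do not separate from the pairing of cultures. The p-values rest on the spread between arrays of 1 clone that is left once differences between experiments are taken out. The number of arrays limits the precision.

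Members and gene lists were chosen with earlier results of these data known. All members are named by role, and levels by treatment are given for the sensors, XBP1 and HSPA5, the member of largest change in each role, the members called with the same direction in 6 of 6 experiments (up to 6 each way) and those called in a doxycycline comparison. DNAJC3, CRELD2 and other values outside this rule were chosen after they were seen where the rule did not name them. Alternatives covered thresholds, background correction, scaling, the filter, the block, the methods' t-test, probes averaged per gene, scans and left-out arrays. Promoters of DERL1, PDIA3 and DERL3 were not analysed here.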

Additional observations from a re-analysis of the deposited data

Results flagged for a closer look

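In 15 of 102 groups of 4 to 6 values checked, the highest or lowest value stood apart from the others. The groups share arrays and experiments, so this count was not compared with chance. Of the 15, 10 were arrays of experiment 1. CANX read -1.44 in Ctl, -2.27 in NaB and -1.43 in Doxy there, and DERL1 read 0.41 in Ctl, 0.28 in NaB, 0.51 in Doxy and -0.012 in DoxyNaB, each the lowest of its treatment. DNAJC3 was also lowest in experiment 1, at -1.46 in Ctl and -1.57 in Doxy, whereas WFS1 was highest there in NaB, at 2.50.

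In experiment 2, SEL1L read -2.15 and P4HB 5.65 in DoxyNaB, each the lowest of its treatment, and the DoxyNaB/Doxy changes of P4HB (0.32) and ATF6 (-0.54) were the lowest of the 6 experiments. The DoxyNaB array of experiment 2 also had the highest mean net signal of negative controls, 248.9. Without it and the other array of high negative controls, the ATF6 change in DoxyNaB/Doxy was 0.09 (limma adjusted p = 0.166) and that in NaB/Ctl passed at 0.20 (limma adjusted p = 0.00449). The EDEM3 change in NaB/Ctl was lowest in experiment 4, at 1.00 against 1.18 or more in the others.

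XBP1 fell further with butyrate when doxycycline was present, by 0.53 on the log2 scale and in 6 of 6 experiments. The test of the difference itself passed (limma adjusted p = 0.00489). The call was lost without experiment 1, 3, 4, 5 or 6 (limma adjusted p of 0.0126 to 0.0539).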

How the results depend on the processing

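The count of members changed over 2-fold with butyrate was 7 in each comparison, against 31.7% and 30.6% of all probes. It became 24 and 24 with no fold limit (68.2% and 67% of all probes) and 15 and 16 with a limit of 1.5-fold (51.7% and 50.5%). With normexp background correction it was 4 and 4 (15.8% and 19.1%). Without any 1 experiment it was 7 to 8 in each (31.2% to 32.3% and 30.1% to 30.9%). Nothing is read about the members from these counts. Scaling to the median gave 8 (2 higher, 6 lower) in NaB/Ctl and 5 (1 higher, 4 lower) in DoxyNaB/Doxy, against 40.4% and 36.4% of all probes. Of all probes that passed in NaB/Ctl, 58.7% were higher with the reported scaling, 22.5% with the median and 49.9% with quantile normalization. Scaling to the median turned P4HB to -0.19 in NaB/Ctl and SEC61B to -0.41 and -0.18, and quantile normalization turned ATF6 to 0.21 in DoxyNaB/Doxy (adjusted p = 0.00435).

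The single calls with doxycycline were less stable. In DoxyNaB/NaB the count of 1 (2.48% of all probes) became 2 at an adjusted p under 0.05 (4.65%). It became 0 with normexp, with median scaling, without the replicate block and with the methods' t-test after Benjamini-Hochberg adjustment. It was also 0 with only the arrays of the groups compared, and in experiments 2 to 4 or 5 and 6 alone. In these settings 0.0205% to 0.928% of all probes passed. Without any 1 experiment the count was 0 to 1 (1.29% to 2.09%). The count of members with a different butyrate response, 1 (1.24% of all probes), became 2 with the unadjusted t-test (4.44%). It became 0 with normexp, with median scaling, with no filter, without the replicate block, with the adjusted t-test and in either set of experiments. It was also 0 with the 75th percentile over probes, which was chosen after seeing the data. In these settings 0% to 0.97% of all probes passed. Without any 1 experiment the count was 0 to 1 (0.575% to 1.01%). The unadjusted t-test gave 7 of 37 members in Doxy/Ctl, a larger share than the 7.08% of all probes, and 0 after adjustment.

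Without the replicate block, which compares experiments as unpaired, the butyrate counts stayed at 7 and 7, against 29.1% and 28.1% of all probes. In that setting CANX (adjusted p = 0.379 and 0.299), DERL1 (0.215 and 0.015) and SEC61B (0.0433 and 0.0264) lost their calls. So did XBP1 in the difference of responses (0.279) and DERL1 in DoxyNaB/NaB (0.933). Over the changes of single named members and all alternatives, 622 values stayed on the same side of the threshold, 80 lost the call and 3 gained one. Another 4 turned sign where the reported setting or the alternative passed. Among the 622, direction was kept where the call passed and was not compared where neither setting passed. XBP1 in the difference of responses, DERL1 in DoxyNaB/NaB and SEC61B in the butyrate comparisons lost the call most often. With no filter on dim probes 8 members changed over 2-fold in each butyrate comparison, against 23.1% and 20.1% of all probes. Without the 2 arrays of highest negative controls it was 7 in NaB/Ctl and 8 in DoxyNaB/Doxy, against 31.7% and 30.9%. The cause of these differences was not tested. Dim probes such as EIF2AK3 and ERN1 limit what the signal over background can show.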
